A study of Mus musculus with 3 samples.

Results

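The miRNAs described here are those known mainly from lineages other than skeletal muscle, measured in mouse myoblasts. A probe was a member when its name carries a miRNA number of 1 of 5 lineages: neural (miR-9, miR-124, miR-137, miR-138, miR-153, miR-219 and miR-338), blood (miR-142, miR-144, miR-150, miR-223 and miR-451), epithelial (miR-141, miR-200, miR-203, miR-205, miR-375 and miR-429), liver or endothelial (miR-122, miR-126, miR-192 and miR-194) and pluripotent (miR-290 to miR-295, miR-302 and miR-367). This gave 75 of the 1265 miRNA probes of the array, with 16 neural, 10 blood, 16 epithelial, 9 liver or endothelial and 24 pluripotent members. The rule uses names alone and no measured value, and none of the 75 is among the 13 probes whose name covers several miRNAs.

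C2C12 cells are cultured mouse muscle precursors of C3H origin, which form multinucleate myotubes once serum is lowered. DMEM with 10% fetal bovine serum was the medium of the C2C12-PR culture, and DMEM with 2% horse serum that of C2C12-DF. W4-08-PR cells, labelled W408 in the sample descriptions, are a stable C2C12 subline carrying V5-tagged Wnt4 under a CMV promoter, selected in blasticidin and grown in the 10% serum medium, in which the study describes spontaneous myotube formation. Total RNA of each condition was labelled with Cy5 and hybridized to 1 array. With 1 array per condition there is no replicate, so no difference between conditions was tested, and every ± below is 1 technical SD that holds no variation between cultures. The medium changes with the state of C2C12, and the transgene and its selection change with the subline, so these cannot be told apart.

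A miRNA is a short RNA cut from a hairpin precursor, and it represses mRNAs that pair with its seed, bases 2 to 8. Each hairpin can yield a product from its 5p and its 3p arm, and usually 1 of them, here called the main arm, accumulates. Some miRNAs are made almost wholly in 1 lineage: miR-124 in neurons, miR-122 in hepatocytes, miR-451 in red blood cell precursors, the miR-200 family in epithelia, miR-375 in pancreatic islets and other endocrine cells of epithelial origin, and the miR-290 to miR-295 cluster in mouse embryonic stem cells.

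The sequences below belong to the probes on which the results turn, together with their nearest relatives. They are the RefSeq mature sequences on GRCm38.p6, written 5′ to 3′ with the seed in capitals. RefSeq entries were matched for 65 of the 75 members, 57 by name and 8 through a gene symbol or synonym. miR-292-3p and miR-375-3p were not matched, so no sequence is given for them. The first is the probe farthest above the BLANK spots and the next are the 5p arms of the pluripotent cluster, which fall into seed groups.
miR-375-5p: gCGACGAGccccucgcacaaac
miR-290-5p: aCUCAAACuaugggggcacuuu
miR-292-5p: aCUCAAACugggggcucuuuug
miR-293-5p: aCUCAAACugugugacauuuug
miR-294-5p: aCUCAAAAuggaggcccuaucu
miR-295-5p: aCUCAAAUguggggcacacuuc
miR-291a-5p: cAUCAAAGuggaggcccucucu
miR-291b-5p: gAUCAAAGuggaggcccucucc

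The next 4 are pairs from paralogous hairpins, of which the first of each pair was detected on all 3 arrays, and the last pair comes from the blood locus that holds the blood member farthest above the BLANK spots.
miR-138-2-3p: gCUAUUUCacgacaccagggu
miR-138-1-3p: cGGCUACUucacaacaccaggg
miR-194-1-3p: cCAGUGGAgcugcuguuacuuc
miR-194-2-3p: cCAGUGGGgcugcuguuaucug
miR-144-3p: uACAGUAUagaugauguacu
miR-451b: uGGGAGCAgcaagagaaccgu

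The other shared seeds are counted among members with a RefSeq match, which leaves out miR-302a-3p. AAGUGCU is shared by 5 of them (miR-291a-3p, miR-294-3p, miR-295-3p, miR-302b-3p and miR-302d-3p). AAUACUG is shared by miR-200b-3p, miR-200c-3p and miR-429-3p, and AACACUG by miR-141-3p and miR-200a-3p. The miR-290 to miR-295 hairpins with a RefSeq match lie on the plus strand from chr7:3218639-3218660 (miR-290-5p) to chr7:3220815-3220837 (miR-295-3p), inside the span of Nlrp12. miR-375-5p lies at chr1:74900696-74900717 on the minus strand, in no other annotated gene.

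Values are spot brightness above background in arbitrary linear units, the background being a BLANK mean trimmed by 5% on each side. Detection followed the authors, whose processed values start near 2 trimmed SD over this background, at 11.9, 10.8 and 9.77 units for C2C12-PR, C2C12-DF and W4-08-PR, the order kept below. Each array held 1664 BLANK spots, of which 119, 100 and 114 passed the same limit, or 7.15%, 6.01% and 6.85%. A second set of spots with no miRNA target, 97 named No Probe and 24 named Negative Control, passed at 9.92%, 9.09% and 14.9%. The arrays thus differ in how easily a spot passes, with the lowest limit on W4-08-PR. Brightness also depends on the probe, so the level of 1 miRNA is not set against another's. All 14 widely expressed miRNAs of a comparison list were detected on every array. Of 19 muscle-enriched probes, 5, 5 and 8 were detected (26.3%, 26.3% and 42.1%). These shares are near the 26.8%, 29.2% and 37.7% of all probes, so the counts do not check the identity of the cells. Of the 19, 11 were detected on no array and 5 on all 3. Among the muscle-enriched probes, miR-206-3p, a miRNA of skeletal muscle, read 54.4, 218.6 and 1917 units.

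Most lineage miRNAs were at background. Since RNA of whole cultures was measured, few cells with much of a miRNA and many cells with little cannot be told apart. Of the 75 members, the C2C12-PR array detected 16, the C2C12-DF array 15 and the W4-08-PR array 22 (21.3%, 20.0% and 29.3%). Over all 1265 probes the shares were 26.8%, 29.2% and 37.7%. The BLANK rate alone would pass 5.36, 4.51 and 5.14 of 75 spots, and the rate of the No Probe and Negative Control spots 7.44, 6.82 and 11.2. The members therefore passed more often than either set of spots and less often than the array as a whole. Above the 99th percentile of the BLANK spots lay 8, 7 and 10 members, and above the brightest BLANK spot 4, 4 and 3. Of all 1265 probes, 244, 277 and 328 lay above that percentile and 180, 222 and 188 above the brightest BLANK spot. The members thus passed both heights less often than the array as a whole.

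Repeated detection separated the members further. Of the 75, 43 were detected on no array, 18 on 1, 7 on 2 and 7 on all 3. The share detected on no array, 57.3%, was close to the 56.3% of all probes. BLANK positions passed on all 3 arrays in 6 of 1664 cases, or 0.361%, a share that gives 0.27 of 75. Another 227 positions passed on 1 array, a share that gives 10.2 of 75. Of the 121 No Probe and Negative Control spots, 28 passed on 1 array (23.1%) and 1 on all 3 (0.826%). Among the 1265 probes, 197 were detected on 1 array. The 18 of 75 members detected once were therefore near the rate of the control spots. Over all probes 21.9% were detected on all 3 arrays, against 9.33% of the members. The 18 members detected once read between 10.0 and 48.3 units on that array, with a median of 12.9, and 9 of them were on W4-08-PR, 5 on C2C12-PR and 4 on C2C12-DF.

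**Figure D1:**
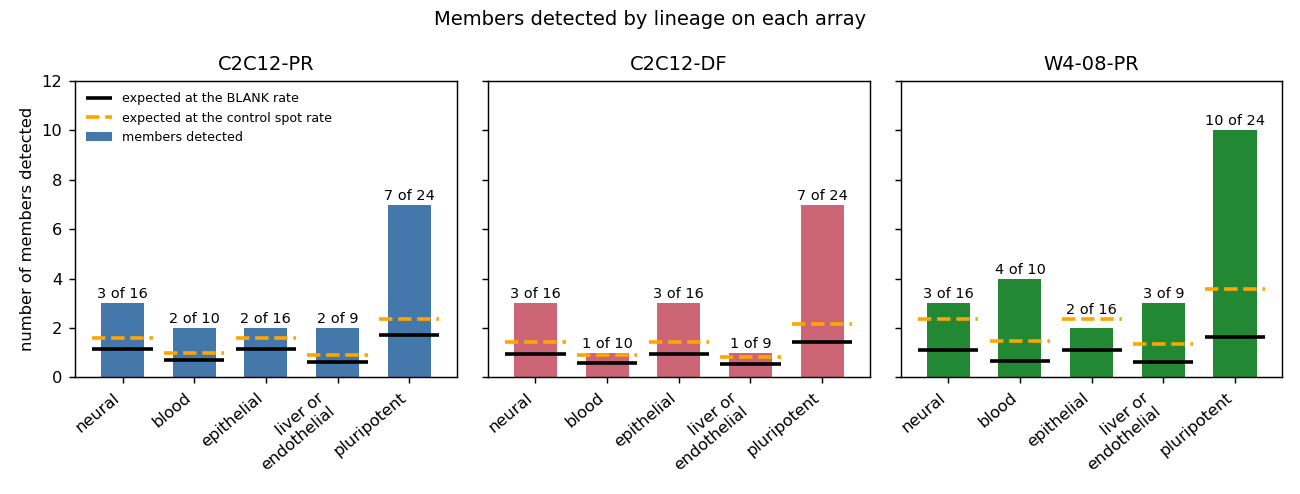
Bars give the number of members of each lineage detected on each of the 3 arrays (1 per condition), with the number of members beside it. Black lines give the count expected at the rate of BLANK spots and orange dashed lines that at the rate of No Probe and Negative Control spots. The pluripotent bars, at 7, 7 and 10 of 24, stand above both lines but near the share of all probes detected (26.8%, 29.2% and 37.7%), which is not drawn.

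The lineages differed in how far they stood from the BLANK rate. Pluripotent members were detected at 7, 7 and 10 of 24, against 1.72, 1.44 and 1.64 at the BLANK rate and 2.38, 2.18 and 3.57 at that of the control spots. As shares these are 29.2%, 29.2% and 41.7%, near the 26.8%, 29.2% and 37.7% of all probes, so the lineage was detected about as often as the array as a whole. Neural members were detected at 3 of 16 on each array (18.75%), against 1.14, 0.962 and 1.10 at the BLANK rate. Blood members stood at 2, 1 and 4 of 10 (20%, 10% and 40%), against 0.715, 0.601 and 0.685. Epithelial members stood at 2, 3 and 2 of 16 (12.5%, 18.75% and 12.5%), against 1.14, 0.962 and 1.10. Liver or endothelial members stood at 2, 1 and 3 of 9 (22.2%, 11.1% and 33.3%), against 0.644, 0.541 and 0.617. Among the 4 lineages other than pluripotent, only the share of blood on W4-08-PR was above that of all probes. On W4-08-PR the epithelial count was below the 2.38 given by the rate of the control spots. Outside the pluripotent lineage a count thus rested on 1 to 4 spots per array, and no error can be given for it.

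Without the 16 probes of miR-375 and of the miR-290 to miR-295 cluster, 7, 7 and 12 of the other 59 were detected (11.9%, 11.9% and 20.3%). The BLANK rate gives 4.22, 3.55 and 4.04 of 59, and the rate of the control spots 5.85, 5.36 and 8.78. Over all probes the shares were 26.8%, 29.2% and 37.7%. The 16 hold the brightest members and a cluster that was often detected, so leaving them out lowers the share of the rest by choice. By arm, 6, 8 and 9 of the 37 main arms were detected (16.2%, 21.6% and 24.3%) and 10, 7 and 13 of the 38 other arms (26.3%, 18.4% and 34.2%). Each of these shares was below that of all probes on the same array. Detection on all 3 arrays was reached by 3 main arms (miR-290-5p, miR-292-3p and miR-375-3p) and 4 other arms (miR-138-2-3p, miR-194-1-3p, miR-294-5p and miR-375-5p).

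**Figure D2:**
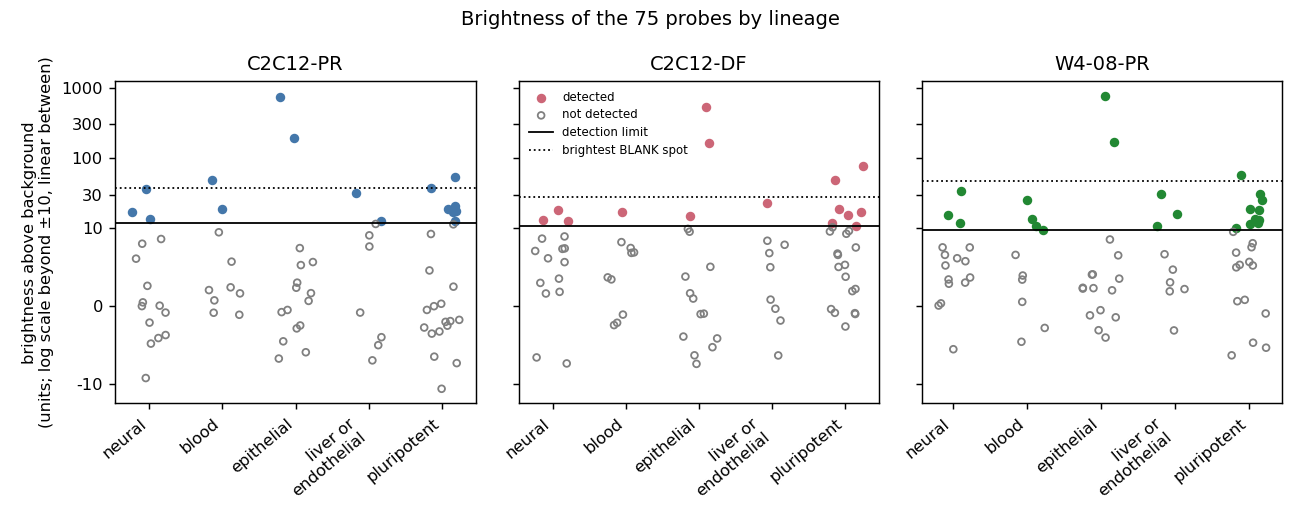
Each point is 1 of the 75 probes, by lineage, with its brightness above background on the y axis (log scale beyond 10 units on either side of 0, linear between), filled where detected. Solid lines mark the detection limit and dotted lines the brightest BLANK spot of the array. The miR-375 probes, at 161 units or more, are the highest points on every array, and most open points lie between -10 and 10 units.

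Both arms of miR-375, the islet miRNA, were far above the BLANK spots on every array. miR-375-5p read 743, 529 and 771 units, or 97.9, 77.5 and 120 SD of the BLANK spots. miR-375-3p, the main arm, read 193, 161 and 169 units, or 25.5, 23.6 and 26.3 SD. No BLANK spot was as bright as either probe on any array. The miR-375-5p sequence holds 68.2% G and C, and the closest of 1031 other sequences on the array, miR-1843b-3p, differs from it by 8 edits. Among probes outside the set with 60% or more G and C, 44.0% were detected on all 3 arrays (88 of 200), against 11.0% below 40% (18 of 163). The members with a sequence (86.7% of the set) had a median of 43.5% G and C, below the median of the other probes with one (81.3% of them). The part of base composition in the miR-375-5p reading was not tested.

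The rest of the epithelial lineage was at background. Of the 14 epithelial probes other than miR-375, only miR-205-5p, of skin and other stratified epithelia, passed a limit, reading -2.84, 15.0 and 4.05 units. That is 7.14% on any array, beside 43.7% of all probes and 16.6% of BLANK positions. Leaving out miR-375, detected on every array, lowers this share by choice. The miR-200 family with miR-141 and miR-429, which keeps the epithelial state by repressing Zeb factors, was undetected on every array. Its highest reading was 9.91 units, for miR-200c-3p on C2C12-DF.

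Probes of the pluripotent cluster passed the limit repeatedly. Of the 14 probes of miR-290 to miR-295, 7, 6 and 8 were detected, against 1.00, 0.841 and 0.959 at the BLANK rate, and 11 of 14 on at least 1 array (78.6%, beside 43.7% of all probes). All probes were detected at 26.8%, 29.2% and 37.7%, below the cluster's share on each array (42.9% at the lowest, on C2C12-DF). The 10 probes of miR-302 and miR-367, the other stem cell cluster, were detected at 0, 1 and 2, against 0.715, 0.601 and 0.685. The clusters therefore differed in count on every array.

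miR-292-3p read 53.8, 76.9 and 57.0 units, above every BLANK spot each time. miR-290-5p read 37.3, 48.3 and 30.8 units, and miR-294-5p 18.9, 16.8 and 19.0. For miR-292-3p and miR-290-5p the C2C12-DF array was the highest of the 3, and miR-294-5p differed between arrays by less than 1 BLANK SD.

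The other cluster members were detected on fewer arrays. miR-291a-5p read 9.3, 18.5 and 25.6 units, and miR-291b-5p, which differs from it by C1G and U22C counted from the 5′ end, read 20.5, 15.6 and 8.1. These near-identical sequences thus ordered the arrays in opposite ways, and whether the probes share signal was not tested. miR-292-5p read 17.6, 2.2 and 18.3 units and miR-295-5p 12.7, -2.6 and 11.3, both low on C2C12-DF alone. miR-293-5p has the CUCAAAC seed of miR-290-5p and miR-292-5p and was undetected, at 0.0, -0.9 and 9.5 units. By arm, 5, 4 and 5 of the 7 5p probes were detected (71.4%, 57.1% and 71.4%) and 2, 2 and 3 of the 7 3p probes (28.6%, 28.6% and 42.9%). The 3p shares were near the 26.8%, 29.2% and 37.7% of all probes. The matched 3p arms with the AAGUGCU seed, known for promoting the stem cell cycle, were near background. Of these 5, only miR-295-3p was detected, at 12.9 units on W4-08-PR. miR-290-3p (17.1 units on C2C12-PR), miR-293-3p (10.9 on C2C12-DF) and miR-291b-3p (11.9 on W4-08-PR) also passed once. In the miR-302 cluster, miR-302b-5p read 2.5, 12.0 and 13.4 units and miR-367-5p passed on W4-08-PR alone, at 10.0.

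**Figure D3:**
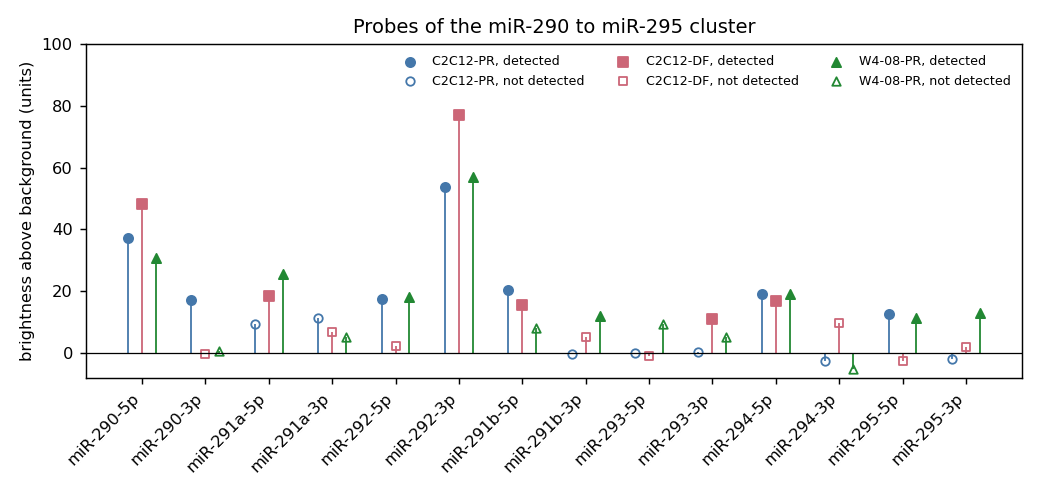
Brightness above background (y axis, units) of the 14 probes of the miR-290 to miR-295 cluster, in their order along the chromosome, on C2C12-PR, C2C12-DF and W4-08-PR. Filled symbols are detected and open ones are not. miR-292-3p and miR-290-5p are the highest on every array, and most 3p arms lie near 0.

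Of the 16 neural members, 9 were detected on no array (56.25%), a share near the 56.3% of all probes. miR-124-3p and miR-9-5p, the best known neuronal miRNAs, stayed below the limit on every array, reading -2.1, 7.1 and 7.5 units and at 2.6, 1.8 and 5.2. Only miR-138-2-3p was detected on all 3 arrays, at 36.5, 18.4 and 33.8 units. It lies at chr8:94324359-94324379 within Nup93. The paralogous arm miR-138-1-3p, 5 edits away, was undetected at 8.0, -7.3 and 0.1, and the main arm miR-138-5p, which both hairpins give, passed on C2C12-DF alone, at 1.90 SD of the BLANK spots. miR-219-1-3p (16.8 units on C2C12-PR), miR-219-5p (13.6 on C2C12-PR), miR-137-3p (12.5 on C2C12-DF), miR-219-2-3p (15.6 on W4-08-PR) and miR-338-5p (11.7 on W4-08-PR) each passed once. miR-219 and miR-338 are known for oligodendrocyte maturation.

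Among liver or endothelial members only miR-194-1-3p was detected on all 3 arrays, at 31.5, 22.6 and 30.5 units (chr1:185313360-185313381, within Iars2). miR-194-2-3p, which differs from it by A8G, C19U, U20C and C22G, passed on C2C12-PR alone, at 12.5 units. The main arm miR-194-5p, given by both hairpins, passed on W4-08-PR alone, at 16.0 units. The hepatocyte miRNA miR-122-5p was undetected at -0.8, -6.3 and 2.2 units, as was miR-192-5p at -5.0, -1.8 and -3.1. miR-126-3p, an endothelial miRNA within Egfl7, passed on W4-08-PR alone, at 10.8 units.

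No blood member was detected on all 3 arrays. miR-144-3p, of red blood cell precursors, read 48.3, 3.7 and 6.6 units, and on C2C12-PR no BLANK spot was as bright. Its partner in the same cluster, miR-451a, read -1.1, 6.9 and 0.6 units and was detected nowhere. miR-451b, on the opposite strand just past miR-451a (chr11:78073219-78073239), read 2.4, 6.8 and 25.6 units. Each of these probes is 1 spot on 1 array, and no second spot of either exists. miR-223-3p, of myeloid cells, read 18.8, 7.5 and 13.5 units, and miR-142-5p, of all blood lineages, 9.5, 16.9 and 9.8. The other main arms of blood, miR-142-3p and the lymphocyte miRNA miR-150-5p, were undetected on every array. The other arm miR-150-3p passed on W4-08-PR alone, at 10.8 units. Across the lineages, 22 of the 37 main arms were detected on no array (59.5%), a share near the 56.3% of all probes.

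**Figure D4:**
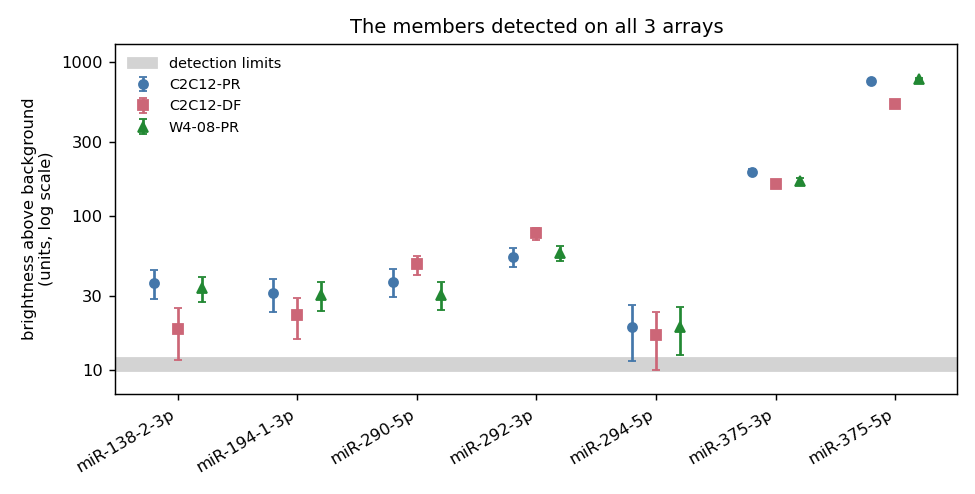
Brightness above background (log y axis, units) of the 7 members detected on all 3 arrays, 1 symbol per array, with bars of 1 SD of the BLANK spots. The grey band spans the detection limits. Both miR-375 probes lie far above the band, and miR-294-5p lies nearest to it.

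For the comparison of conditions, brightness was background-corrected with an offset of 50 units, quantile-normalized over the 1265 probes and converted to log2. A member was called where the log2 ratio was at least 1 in size with the probe detected on the brighter array. None of the 75 members was called in any of the 3 comparisons. Under other settings of scaling or background, miR-144-3p was called lower in W4-08-PR over C2C12-PR in 5 of 7 and in C2C12-DF over C2C12-PR in 4 of 7. Over all probes, 0.237% were called higher and 0.711% lower in W4-08-PR over C2C12-PR, 0.237% and 1.11% in C2C12-DF over C2C12-PR, and 0.395% and 0.474% in W4-08-PR over C2C12-DF. At these shares fewer than 1 of 75 would be called in each direction, so a count of 0 is close to the background. The offset also limits what can be seen: a fall of 1 on the log2 scale was attainable for 7 of the 16 members detected on C2C12-PR and for 4 of the 15 detected on C2C12-DF.

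C2C12-DF over C2C12-PR asks what changes with differentiation medium. The members ranged from -0.75 to 0.41 on the log2 scale. miR-375-5p had a log2 ratio of -0.39 ± 0.12 and miR-375-3p of -0.30 ± 0.11, while miR-292-3p stood at 0.24 ± 0.11 and miR-290-5p at 0.12 ± 0.14. miR-138-2-3p stood at -0.34 ± 0.15 and miR-194-1-3p at -0.21 ± 0.16. miR-294-5p stood at -0.06 ± 0.19, and the median of the 277 probes detected on all 3 arrays was 0.05. Other scalings move all probes together, so each ratio was also taken less that median, over 8 settings that use the same spots. miR-292-3p (0.15 to 0.36) and miR-290-5p (0.04 to 0.18) then lay above the median in all 8 and the other 5 below it. In the main setting miR-290-5p (0.07) and miR-294-5p (-0.11) lay within 1 technical SD of the median.

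W4-08-PR over C2C12-PR sets the Wnt4 subline beside its parent line in the same medium. The transgene, its selection and the state of the subline change together here. The members ranged from -0.74 to 0.34. The log2 ratio was -0.53 ± 0.11 for miR-375-3p, -0.15 ± 0.13 for miR-375-5p, -0.23 ± 0.14 for miR-290-5p and -0.11 ± 0.13 for miR-292-3p. The median of the 277 probes was -0.02. Less that median, all 7 members detected on every array lay below it in the 8 settings, which use the same spots. miR-375-3p did so by the most in the main setting, with a range of -0.66 to -0.29. In that setting miR-292-3p (-0.08), miR-294-5p (-0.08), miR-194-1-3p (-0.11) and miR-375-5p (-0.13) lay within 1 technical SD of the median. The SD was 0.18 for miR-294-5p and 0.15 for miR-194-1-3p. In the authors' values, where the median is 1.05, the ratios themselves were positive, 0.51 for miR-375-3p.

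W4-08-PR over C2C12-DF sets the subline beside differentiating cells, and the members ranged from -0.37 to 0.40. miR-292-3p and miR-290-5p each stood at -0.34, with a technical SD of 0.11 and 0.13, and miR-375-5p at 0.24 ± 0.17. Less the median of the 277 probes, miR-290-5p (-0.89 to -0.32), miR-292-3p (-0.67 to -0.32), miR-375-3p (-0.25 to -0.06) and miR-294-5p (-0.15 to -0.02) lay below it in all 8 settings. miR-375-5p (0.26 to 0.38) and miR-138-2-3p (0.12 to 0.65) lay above it, and miR-194-1-3p on both sides. In the main setting miR-294-5p (-0.02, technical SD 0.15) and miR-194-1-3p (0.09, technical SD 0.14) lay within 1 technical SD of the median.

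miR-144-3p had the lowest ratio against C2C12-PR. The log2 ratio was -0.74 ± 0.16 on W4-08-PR and -0.75 ± 0.17 on C2C12-DF, and since it was undetected on both, these are bounds of at least 1.61-fold and at least 1.53-fold lower. The 2 comparisons share the C2C12-PR spot. In W4-08-PR over C2C12-PR, miR-451b had a log2 ratio of 0.34 ± 0.19 and was undetected on C2C12-PR. Its bound, 1.11-fold or 0.16 on the log2 scale, was smaller than that technical SD. The bounds of both miRNAs are on the scale with the offset and hold no technical error.

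**Figure D5:**
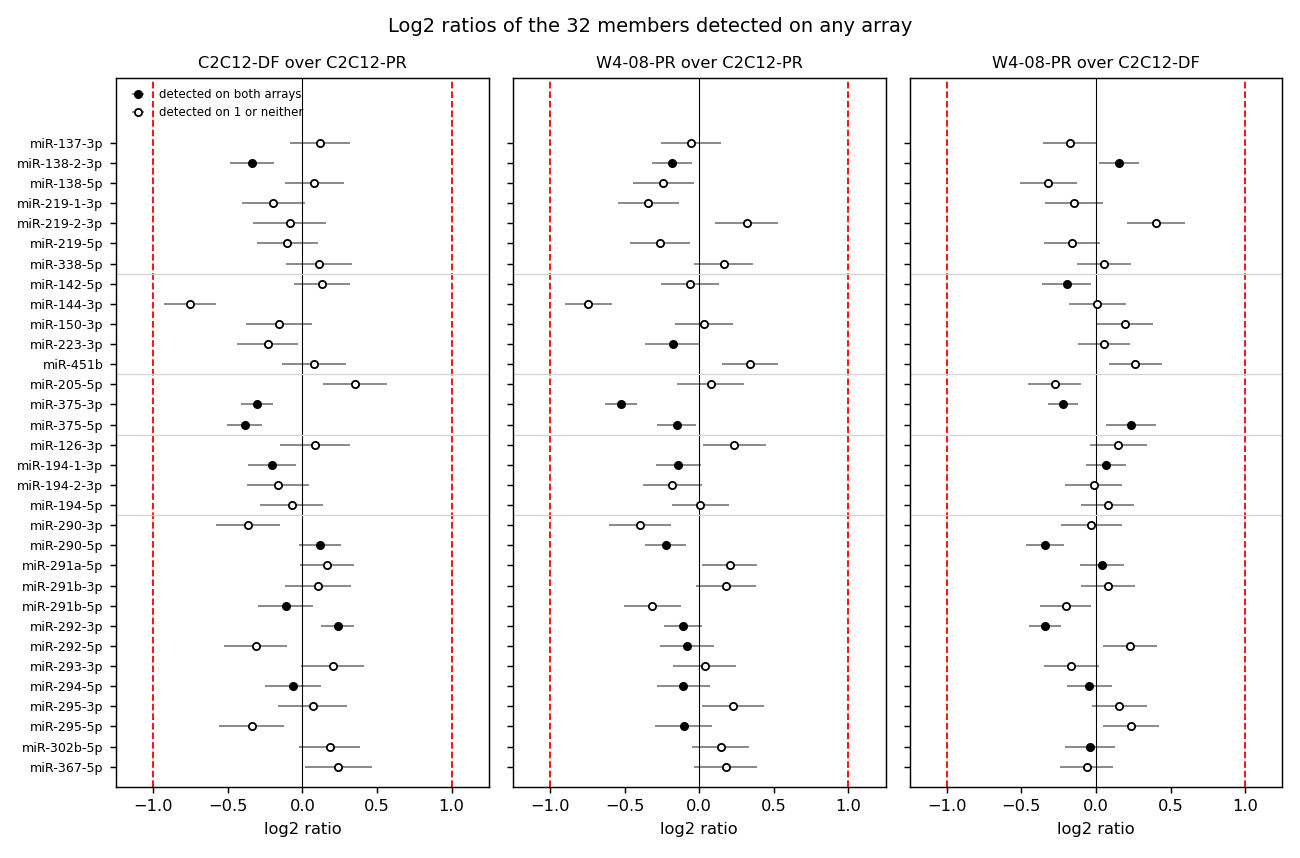
Log2 ratio (x axis) of the 32 members detected on any array, by lineage from neural (top) to pluripotent (bottom), in the 3 comparisons, with bars of 1 technical SD. Filled points were detected on both arrays, and red dashed lines mark a size of 1. No point reaches a line, and miR-144-3p comes nearest, at -0.75 and -0.74.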

How the data were processed

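The members, lineages and comparison lists were chosen with earlier results of these data known. Toray 3D-Gene arrays were used, 1 per condition. The authors deposited the raw intensity of each spot on a linear scale, and a background-subtracted and globally normalized signal per probe, which is empty below their detection limit. The deposited signal was used for detection and as an alternative. The processed table of the whole series differed from the array values by at most 4e-06 over 1265 rows. The scanner and its settings are not given in the sources used here. The study's methods name Isogen for RNA extraction and the labels name a miRNeasy kit.

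Background correction was by normexp (limma 3.58.1, R 4.3.3), fitted on all 3200 spots with an offset of 50, and quantile-normalized. The offset is added before log2 is taken, so it acts as a pseudocount of 50 units and draws dim ratios toward 0. No further pseudocount was added. The technical SD combines the SD of the BLANK spots with the 5.34% relative SD of 16 spike control spots. Counts ran in Python 3.11.15 with pandas 2.3.3, and scripts were tested on simulated data. The number of arrays limits precision. Values on every array are given for the members detected on all 3 arrays, those called, and the one of each lineage farthest above the BLANK spots, with other members named where they share a seed, a hairpin or a lineage role. Alternatives were other detection limits, main arms alone, and other backgrounds, offsets, scalings and size limits. A limit from the No Probe and Negative Control spots, a scaling to the spike controls and ratios taken less the median of the probes detected on all 3 arrays were chosen after seeing the data.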

Additional observations from a re-analysis of the deposited data

How the results depend on the processing

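Detection counts depended on the limit. On C2C12-PR, C2C12-DF and W4-08-PR, 10, 9 and 12 members were detected at 3 SD, 8, 7 and 10 at the 99th percentile of the BLANK spots, and 13, 9 and 12 at the mean plus 2 SD of the No Probe and Negative Control spots. Above the 99th percentile lay 244, 277 and 328 of the 1265 probes. Main arms alone gave 6, 8 and 9, with 3 on all 3 arrays. The 7 members on all 3 arrays remained at 3 SD, and miR-294-5p was lost at the 99th percentile. At a common height of 11.9 units the counts were 16, 14 and 16.

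No member was called with no between-array normalization, with scaling to the median, with detection on both arrays, or at a size limit of 0.9 or 2. In W4-08-PR over C2C12-PR, 1 was lower with scaling to the 75th percentile and 1 with an offset of 10 (miR-144-3p). Over all probes 1.26% and 1.03% were lower under these settings. Plain background subtraction gave 2 higher (miR-291a-5p and miR-451b) and 2 lower (miR-144-3p and miR-291b-5p), also when scaled to the spike controls. It called 1.82% of all probes higher and 2.45% lower, and 3.95% and 1.74% with the spike scaling, so the counts of members were near the background. The authors' values gave 4 higher and 1 lower. In C2C12-DF over C2C12-PR, plain subtraction gave 2 lower (miR-138-2-3p and miR-144-3p) under both scalings, beside 2.77% and 2.61% of all probes. An offset of 10 and the authors' values gave 1 lower each (miR-144-3p), beside 1.74% and 2.06% of all probes. In W4-08-PR over C2C12-DF, plain subtraction gave 1 higher (miR-451b) under both scalings, beside 2.29% and 4.19% of all probes, and the authors' values gave 6. In the authors' values the median of the 277 probes detected on all 3 arrays shifted to 1.05, 0.41 and 0.74 in W4-08-PR over C2C12-PR, C2C12-DF over C2C12-PR and W4-08-PR over C2C12-DF, and 18.6% of all probes were called higher in the first and 12.4% in the last. The cause of the other changes was not tested. No paired analysis was possible because each condition has 1 array.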
